A study of Mus musculus with 10 samples.

Results

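The 10 genes described here encode the 4 FGF receptor kinases (Fgfr1, Fgfr2, Fgfr3 and Fgfr4), the type III sodium-phosphate cotransporters (Slc20a1 and Slc20a2), the calcification inhibitor matrix Gla protein (Mgp), the vitamin D receptor (Vdr), and the pair of proteins that supply pyrophosphate outside the cell (Enpp1 and Ank). They were taken by symbol from a table of 23303 gene entries, and all 10 had an entry of their own. Values are FPKM, sequenced fragments corrected for transcript length and for library size, from left ventricles of male mice of strain 129X1/SvJ. By the surgery label, 5 mice belonged to the CKD group (chronic kidney disease) and 5 to the Sham group, which the design text calls normal. The sources used here name neither the operation that produced CKD nor the mice's ages. The series title places the work in uremic cardiomyopathy, and CKD against Sham is its single comparison.

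FGF receptors are tyrosine kinases of the cell surface that bind fibroblast growth factors together with heparan sulfate or with a klotho co-receptor. FGF23, a bone hormone that lowers blood phosphate, rises in kidney disease, and its action on the heart through FGF receptors has been much studied. Phosphate enters most cells through the SLC20 cotransporters. Outside the cell, pyrophosphate and proteins such as matrix Gla protein hold back the growth of calcium phosphate crystals, and vessels and valves calcify when these brakes fail.

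The summed FPKM of a library lay between 570509 and 605007. The labelled tissue showed its markers: of 11 cardiomyocyte genes, 10 were above a mean of 1 FPKM, with a summed level of 67513 to 84239 FPKM in CKD and 71205 to 86773 in Sham, while Myh6, the alpha myosin heavy chain, was listed at 0 in all 10 libraries. An entry listed at 0 can therefore be a failed estimate, and is not read here as absence or low expression. CKD 1 and Sham 1 stood apart from the other 8 libraries. In low values (at most 0.2 FPKM), which move in steps of 1 fragment, 27.2% to 32.2% of the genes shared the commonest ratio between any pair of the other 8 libraries, within 0.03 on the log2 scale. That share was 23.9% between CKD 1 and Sham 1 and 3.66% to 6.70% between either of them and the rest. These libraries also had 14.8% and 15.3% of their summed FPKM in the 10 most abundant genes, against 17.6% to 18.2% elsewhere. As 1 of them is in each group, results are also given with the remaining 8 libraries, which hold 4 mice a group. This was done for the tested genes among the 10 and for the genes of the functional lists that passed. The cell markers, and genes picked for likeness, are given with all 10 libraries only.

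In CKD ventricles Mgp was 1.56-fold and Fgfr1 1.22-fold higher than in Sham, and Slc20a2 was 1.20-fold lower. Fgfr3, Enpp1, Ank and Slc20a1 did not pass the test, and Vdr, Fgfr2 and Fgfr4 lay near 0 in both groups. The test was limma on log2(FPKM + 0.5), adjusted by the Benjamini-Hochberg method over the 11651 genes with a mean of at least 1 FPKM, at a threshold of 0.05. Of the 7 genes tested here, 2 were called higher and 1 lower, where 3.17% of all tested genes were called higher, 2.12% lower and 5.29% in either direction. The groups did not overlap for 2 of the 7, both with CKD above Sham, against 4.10% of all tested genes above, 3.18% below and 7.28% either way. The median difference of the 7 was 0.18 (log2), and that of all tested genes was -0.0035. With the 8 libraries, 1 of the 7 was called higher (2.66% of all genes tested then) and 1 lower (2.13%). The groups then did not overlap for 4 of the 7, with CKD above Sham for Mgp and Fgfr1 (6.61% of all genes) and below it for Slc20a2 and Ank (6.47%).

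**Figure D1:**
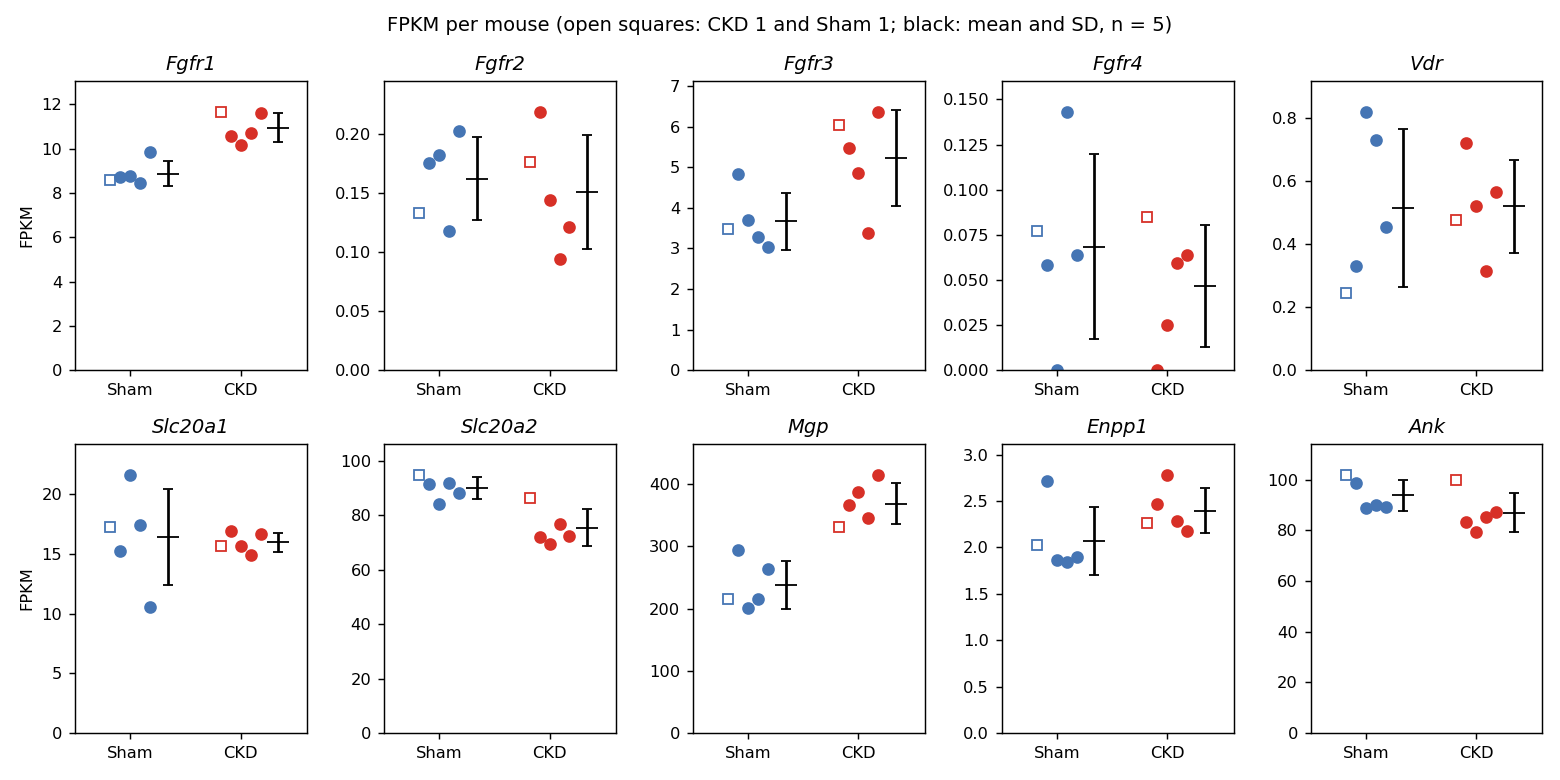
FPKM of the 10 genes in each mouse (vertical axes from 0; 5 Sham in blue, 5 CKD in red, open squares for CKD 1 and Sham 1), with the group mean and SD in black. The CKD values of Mgp (330 to 415 FPKM) and Fgfr1 (10.2 to 11.6) all lie above the Sham values, and 4 of 5 CKD values of Slc20a2 lie below every Sham value.

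Because FPKM is scaled to transcript length, the levels of different genes can be set side by side. Mgp was the most abundant, with a mean of 303 FPKM over the 10 libraries, above 97.6% of the tested genes. Ank (90.4 FPKM) and Slc20a2 (82.8) followed, and their ranges overlapped, with Ank the higher in 9 of 10 libraries. Slc20a1 (16.2 FPKM) and Fgfr1 (9.90) also overlapped in range, although Slc20a1 was the higher in each library. Below them came Fgfr3 (4.44), Enpp1 (2.23), Vdr (0.517), Fgfr2 (0.156) and Fgfr4 (0.0576). Of these neighbours only Fgfr2 and Fgfr4 overlapped.

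Among the receptors, Fgfr1 (GRCm38 chromosome 8, 25518759 to 25575718) encodes the form that is widespread in mesenchymal tissue and vessels. It was at 11.6, 10.6, 10.2, 10.7 and 11.6 FPKM in CKD 1 to CKD 5. In Sham 1 to Sham 5 it was at 8.59, 8.73, 8.75, 8.43 and 9.83 FPKM. Each CKD value exceeded each Sham value, and Sham 5 was the highest of its group. The means were 10.9 ± 0.652 and 8.87 ± 0.556 FPKM (SD, n = 5 each), a log2 difference of 0.29 (SE 0.06, adjusted p = 0.0224). With the 8 libraries the groups still did not overlap and the difference was 0.26, but it did not pass (adjusted p = 0.0608). Leaving out CKD 5, Sham 2, Sham 3 or Sham 4 alone also ended the call (adjusted p up to 0.0595). In a piece of tissue, more cells that carry a transcript and more of it per cell cannot be told apart.

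Fgfr3 (chromosome 5, 33721724 to 33737068) encodes a receptor best known for restraining bone growth. Its CKD values were 6.05, 5.47, 4.86, 3.37 and 6.36 FPKM, and its Sham values 3.47, 4.82, 3.70, 3.29 and 3.03 FPKM. CKD 4 lay within the Sham range, and the other 4 CKD mice lay above the highest Sham mouse, Sham 2. The means were 5.22 ± 1.18 and 3.66 ± 0.693 FPKM. Its difference of 0.45 (log2, 95% interval 0.10 to 0.79) was larger than that of Fgfr1 but varied more between mice, and it did not pass (SE 0.16, adjusted p = 0.130). Without CKD 4 it was 0.58 and passed (adjusted p = 0.0237), and with the 8 libraries it was 0.38 (adjusted p = 0.285). A transcript of unknown function on the opposite strand, G630022F23Rik, shares 13.9% of the exon bases of Fgfr3, and reads of the pair cannot be told apart without strand.

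Fgfr2 (chromosome 7, 130162451 to 130266808), a receptor of epithelia and bone, and Fgfr4 (chromosome 13, 55152818 to 55168759), the receptor through which FGF23 has been proposed to act on heart muscle, were near 0. Fgfr2 was between 0.0937 and 0.218 FPKM in CKD and between 0.118 and 0.202 in Sham. Fgfr4 was at 0.0850, 0, 0.0253, 0.0593 and 0.0638 FPKM in CKD. In Sham it was at 0.0771, 0.0580, 0, 0.143 and 0.0640 FPKM. The groups overlapped for both genes, and at these levels, under the minimum of 1 FPKM, a change could have gone undetected. In a fit with no minimum their differences were -0.03 (95% interval -0.16 to 0.11, adjusted p = 0.877) and -0.05 (-0.20 to 0.09, adjusted p = 0.757), on a scale that is compressed this close to the pseudocount.

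The receptors together summed to 16.4 ± 1.70 FPKM in CKD, with a range of 14.2 to 18.1, and to 12.8 ± 0.718 FPKM in Sham, with a range of 11.98 to 13.8. These ranges did not overlap. Fgfr1 made up 67.2% ± 4.64 of the sum in CKD and 69.6% ± 4.12 in Sham, and Fgfr3 31.6% ± 4.57 and 28.6% ± 4.27, so the makeup of the receptor pool overlapped between the groups. CKD 4 had the largest Fgfr1 share of the 10 mice (75.3%), close to that of Sham 5 (74.9%). Fgfr2 and Fgfr4 took at most 1.54% and 1.19% of the sum in any library.

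**Figure D2:**
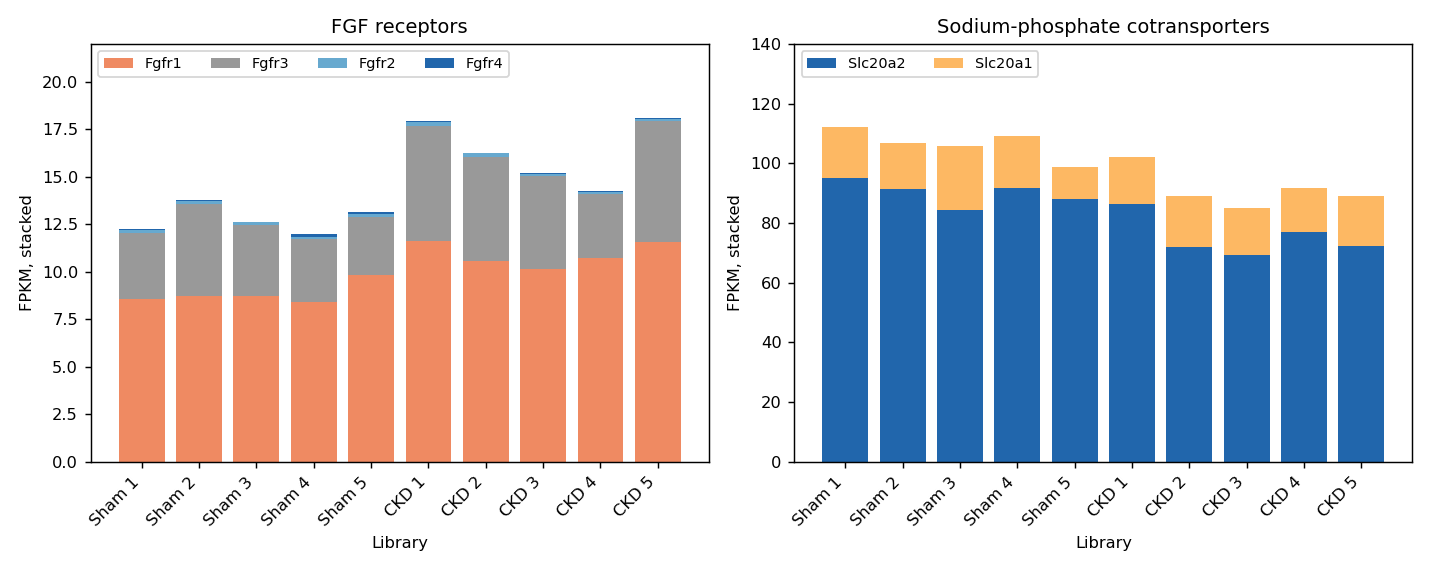
FPKM per library, stacked from 0, of the 4 FGF receptors (left) and of the sodium-phosphate cotransporters Slc20a1 and Slc20a2 (right), for 5 Sham and 5 CKD mice. Fgfr1 and Fgfr3 fill nearly the whole receptor bar, which is taller in CKD (14.2 to 18.1 FPKM) than in Sham (11.98 to 13.8), and Slc20a2 fills most of the cotransporter bar in both groups.

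The FGF genes and the signalling chain of these receptors were described from lists chosen by function. Of 22 FGF family genes, intracellular members such as Fgf13 included, 7 were tested. Among them 1 was called, and lower, where 2.12% of all tested genes were called lower and 3.17% higher. Fgf16, a ligand of heart muscle, fell from 8.77 ± 1.93 FPKM in Sham to 5.57 ± 0.642 in CKD (log2 -0.60, SE 0.13, adjusted p = 0.0212), with no overlap between the groups. Its call held with the 8 libraries (-0.54, adjusted p = 0.0148) and was lost without CKD 2, CKD 5 or Sham 2 alone (adjusted p up to 0.0531). Fgf13, an intracellular member that binds sodium channels, did not pass (log2 -0.23, adjusted p = 0.0743). It was called lower with the 8 libraries (-0.25, 0.0424) and with a term for CKD 1 and Sham 1 in the model (0.0200). Quantile normalization (0.0481) and library weights (0.0390) also gave the call. Fgf1, acidic FGF, was the most abundant ligand, at 49.9 ± 3.43 FPKM in CKD and 57.1 ± 4.85 in Sham, and did not pass (log2 -0.19, adjusted p = 0.137). With library weights it was called lower (-0.22, adjusted p = 0.0499). Fgf23 itself was at most 0.336 FPKM in any library, and Fgf3, Fgf4, Fgf15 and Fgf22 were listed at 0 throughout. Median differences were -0.19 for the 7 tested FGF family genes and -0.12 for the 3 tested co-receptors and binding proteins. None of those 3 passed. Fgfrl1, a receptor-like protein without a kinase, was the most abundant of these, at 9.50 ± 0.682 FPKM in CKD and 10.4 ± 0.779 in Sham. The klotho genes were near 0, with Kl at most 0.101 and Klb at most 0.0791 FPKM.

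All 12 genes of the signal relay were tested, and 1 was higher, where 3.17% of all tested genes were. Ptpn11, the phosphatase SHP2 that links FGF receptors to the RAS pathway, averaged 93.2 ± 5.25 FPKM in CKD against 79.4 ± 5.75 in Sham, a log2 difference of 0.23 (SE 0.06, adjusted p = 0.0462). With the 8 libraries the difference was 0.27 (adjusted p = 0.0408). Leaving out CKD 1, Sham 1 or Sham 5 kept the call, and leaving out any of the other 7 libraries ended it (adjusted p up to 0.111). So did a fit with no minimum level (0.0559), one with equal library totals (0.0504) and one with no variance trend (0.0747). Gab1, a docking protein of the same chain, had a difference of -0.28 that did not pass (adjusted p = 0.0960). The median of the relay genes was -0.08.

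Of 10 tested feedback and target genes, 1 was higher, against 3.17% of all tested genes. Dusp6, a phosphatase that inactivates ERK and is a classic FGF-induced gene, averaged 23.8 ± 2.16 FPKM in CKD against 17.4 ± 2.92 in Sham without overlap, a log2 difference of 0.45 (SE 0.11, adjusted p = 0.0378). The difference was 0.51 with the 8 libraries (adjusted p = 0.0411). Leaving out CKD 3, Sham 1 or Sham 5 kept this call, and it ended when any of the other 7 libraries was left out (adjusted p up to 0.0905) or with no minimum level (0.0571). The Sprouty inhibitors Spry1, Spry2 and Spry4 did not pass, with differences of 0.03, -0.09 and 0.0028. Dusp5, a nuclear ERK phosphatase, had a difference in the other direction that did not pass (log2 -0.74, adjusted p = 0.0764). With library weights Dusp5 was called lower (-0.75, adjusted p = 0.0437). The list's median was 0.0072.

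**Figure D3:**
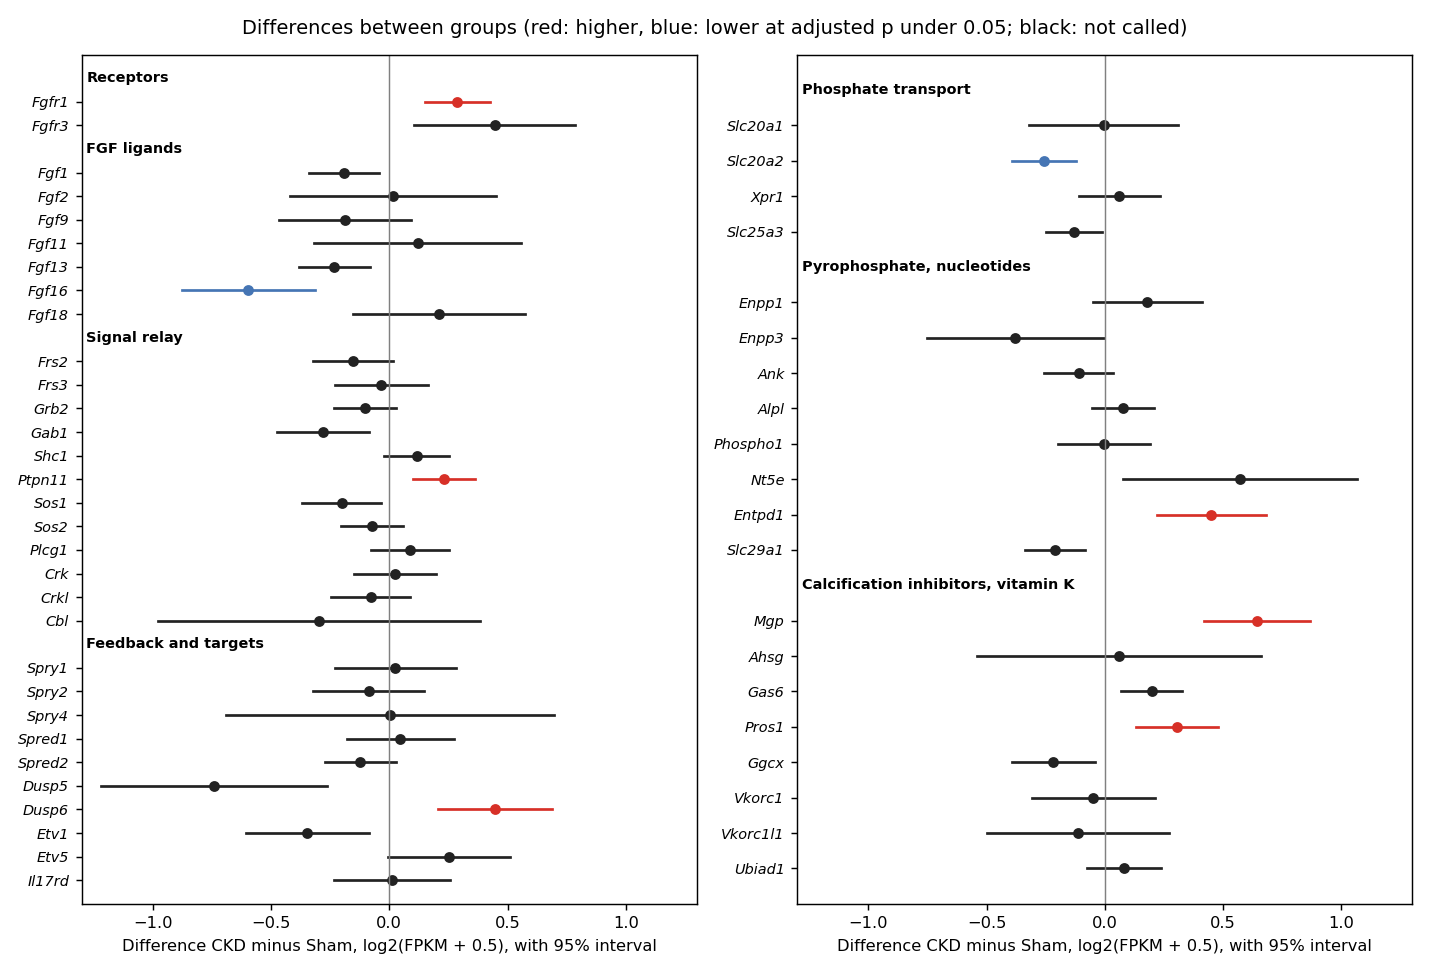
Difference between CKD and Sham on the log2(FPKM + 0.5) scale with its unadjusted 95% interval for the tested genes of 7 functional groups (red, higher and blue, lower at an adjusted p under 0.05; black, not called). Each group has 1 or 2 coloured genes among black ones, and Mgp (0.64) is the called gene farthest above 0.

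Slc20a2 (chromosome 8, 22476700 to 22569616) encodes PiT-2, the cotransporter whose loss causes calcification of the brain's small vessels. It was at 86.5, 72.0, 69.4, 77.0 and 72.3 FPKM in CKD 1 to CKD 5. The Sham mice were at 94.9, 91.6, 84.2, 91.8 and 88.2 FPKM. CKD 1 lay above the lowest Sham mouse, Sham 3, and the other 4 CKD mice lay below all Sham mice. From 90.1 ± 4.09 FPKM in Sham it fell to 75.4 ± 6.74 in CKD (log2 -0.26, SE 0.06, adjusted p = 0.0356). With the 8 libraries, where CKD spanned 69.4 to 77.0 FPKM and Sham 84.2 to 91.8, the difference was -0.29 (adjusted p = 0.0109). Among fits that left out 1 library, those lacking CKD 1, Sham 3 or Sham 5 kept the call and the other 7 did not (adjusted p up to 0.0925), nor did equal library totals (0.0662) or a model with no variance trend (0.0567). Smim19 shares 95 exon bases with Slc20a2 on the opposite strand, 1.53% of its exon length, and did not pass (34.6 ± 2.32 FPKM in CKD and 37.3 ± 2.44 in Sham, adjusted p = 0.377).

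Slc20a1 (chromosome 2, 129198773 to 129211615) encodes PiT-1, the related cotransporter linked to phosphate-driven calcification of vascular smooth muscle. It was at 15.7, 16.9, 15.6, 14.9 and 16.6 FPKM in CKD and at 17.2, 15.3, 21.6, 17.4 and 10.6 FPKM in Sham. The CKD mice lay inside the Sham range, which was set by Sham 3 and Sham 5. The means were 16.0 ± 0.821 and 16.4 ± 4.01 FPKM, and the difference of -0.0058 (log2, 95% interval -0.32 to 0.31, adjusted p = 0.993) changed sign with the libraries left out (0.026 with the 8 libraries, adjusted p = 0.956). Slc20a2 exceeded Slc20a1 by 4.74 ± 0.560 times in CKD and 5.80 ± 1.62 times in Sham, with overlapping ranges of 4.25 to 5.51 and 3.89 to 8.34. On the opposite strand, 9830144P21Rik and Gm4430 share 8.10% and 5.02% of the exon bases of Slc20a1. Reads of these bases cannot be told apart without strand.

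Of the 7 phosphate transporters listed, 4 were tested. Slc20a2 was the one called, and lower, where 2.12% of all tested genes were. Xpr1, the phosphate exporter, had a difference of 0.06 (adjusted p = 0.740). Slc25a3, which carries phosphate into mitochondria, was the most abundant, at 1082 ± 47.8 FPKM in CKD and 1186 ± 87.4 in Sham, and did not pass (log2 -0.13, adjusted p = 0.207), although it did with a term for CKD 1 and Sham 1 (0.0309). Of the cotransporters of kidney and gut, Slc34a2 was at most 0.131 FPKM, and Slc34a1 and Slc34a3 were listed at 0 throughout.

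Ank (chromosome 15, 27466677 to 27594909) encodes a membrane protein through which ATP and pyrophosphate leave the cell. Its CKD values were 100.1, 83.3, 79.5, 85.2 and 87.2 FPKM and its Sham values 102, 98.9, 89.1, 90.1 and 89.2 FPKM. CKD 1 and Sham 1 were the highest of their groups. The means were 87.0 ± 7.83 and 93.8 ± 6.14 FPKM, and the difference did not pass (log2 -0.11, 95% interval -0.26 to 0.04, adjusted p = 0.406). In the 8 libraries the groups did not overlap, with 79.5 to 87.2 FPKM in CKD and 89.1 to 98.9 in Sham. There the difference was -0.13 and still did not pass (adjusted p = 0.166).

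Enpp1 (chromosome 10, 24637914 to 24712159) encodes the ectoenzyme that makes pyrophosphate from ATP. It was at 2.26, 2.47, 2.78, 2.28 and 2.18 FPKM in CKD and at 2.02, 2.71, 1.87, 1.84 and 1.90 FPKM in Sham. Sham 2 lay among the highest CKD mice, and the other 4 Sham mice lay below every CKD mouse. The means were 2.396 ± 0.243 and 2.07 ± 0.367 FPKM, a difference that did not pass (log2 0.18, 95% interval -0.05 to 0.41, adjusted p = 0.391; 0.26 without Sham 2, adjusted p = 0.148; 0.19 with the 8 libraries, adjusted p = 0.441).

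Of 8 tested genes of pyrophosphate and extracellular nucleotides, 1 was higher, against 3.17% of all tested genes. Entpd1 (CD39), which breaks down ATP on endothelial and immune cells, averaged 6.18 ± 0.817 FPKM in CKD against 4.39 ± 0.595 in Sham without overlap, a log2 difference of 0.45 (SE 0.11, adjusted p = 0.0318). Of the fits with 1 library left out, those lacking CKD 4, Sham 1, Sham 4 or Sham 5 kept the call and the other 6 did not (adjusted p up to 0.0656), nor did the fit with no minimum level (0.0538) or the 8 libraries (0.0566). Alpl, the tissue-nonspecific phosphatase that destroys pyrophosphate, had a difference of 0.08 (adjusted p = 0.550). Nt5e (CD73), which makes adenosine from AMP, had one of 0.57 that did not pass (SE 0.23, adjusted p = 0.187). Slc29a1, a nucleoside transporter, averaged 44.5 ± 2.95 FPKM in CKD against 51.6 ± 2.83 in Sham without overlap, and just missed the threshold (log2 -0.21, adjusted p = 0.0585). It was called lower with quantile normalization (0.0466), median-ratio scaling (0.0434), library weights (0.0319) and the term for CKD 1 and Sham 1 (0.0198). Abcc6, a liver transporter behind circulating pyrophosphate, was listed at 0 in all libraries.

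Mgp (chromosome 6, 136872435 to 136875823) encodes matrix Gla protein, a small vitamin K-dependent protein of smooth muscle, endothelium, fibroblasts and cartilage whose loss calcifies arteries. It was at 330, 366, 387, 346 and 415 FPKM in CKD 1 to CKD 5. In Sham 1 to Sham 5 it was at 215, 293, 202, 215 and 264 FPKM. The groups did not overlap, and CKD 1 was the lowest of its group. Mgp rose from 237.7 ± 39.3 FPKM in Sham to 369 ± 33.6 in CKD (log2 0.64, SE 0.10, adjusted p = 0.00482). With the 8 libraries the difference was 0.65 (adjusted p = 0.0155). Leaving out 1 library gave 0.59 to 0.72, with adjusted p from 0.00281 to 0.0152, so this call did not rest on 1 mouse.

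**Figure D4:**
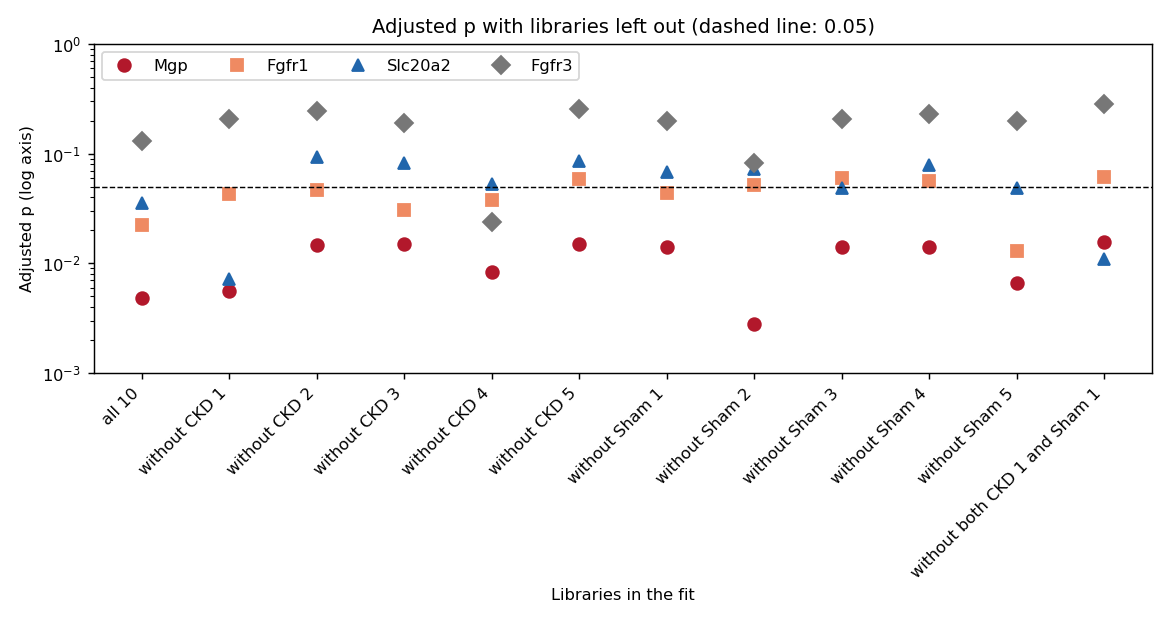
Adjusted p (log axis) of Mgp, Fgfr1, Slc20a2 and Fgfr3 with all 10 libraries, with each library left out in turn and without both CKD 1 and Sham 1; the dashed line is 0.05. Mgp stays below the line in each fit shown, Fgfr1 and Slc20a2 cross it, and Fgfr3 is below it only without CKD 4.

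Markers of the cells that make Mgp, and of macrophages, were measured in the same libraries. Of 10 fibroblast markers 5 were called higher (Col1a1, Col1a2, Lum, Pi16 and Mfap5), where 3.17% of all tested genes were. Pdgfra (log2 0.05), Tcf21 (-0.13), Dcn (0.07), Gsn (0.07) and Dpt (0.26) were not called. The sum of all 10 markers was 1306 to 1497 FPKM in CKD and 1199 to 1300.4 in Sham. Its largest parts were the uncalled Gsn and Dcn, with CKD means of 639 and 461 FPKM. None of 10 endothelial markers passed (403 to 480 FPKM against 398 to 455), nor did any of 9 smooth muscle and pericyte markers (240 to 273 against 243 to 276). Of 9 tested macrophage markers 5 were called higher (Cd68, Csf1r, C1qa, C1qb and C1qc). The sum of all 10 macrophage markers listed was 381 to 552 FPKM in CKD against 270 to 327 in Sham. Its largest part was Lyz2 (174 FPKM on average in CKD), which was not called (adjusted p = 0.0831). Of 6 cartilage and valve genes 2 were tested and neither passed, with Col2a1 and Acan, the defining ones, at most 0.0209 and 0.0609 FPKM. The part of these cells in the differences of Mgp, Fgfr1 and the other genes was not tested.

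Among the other calcification inhibitors and vitamin K genes, 8 were tested with Mgp included. Of these, 2 were higher, where 3.17% of all tested genes were. The second was Pros1, the vitamin K-dependent protein S, with 14.1 ± 1.66 FPKM in CKD against 11.3 ± 0.624 in Sham, a log2 difference of 0.30 (SE 0.08, adjusted p = 0.0493). Its call survived the loss of CKD 4 (0.0255) but of no other library (adjusted p up to 0.115), and 6 further settings ended it, among them the 8 libraries (0.115). Gas6, a related vitamin K-dependent ligand, had a difference of 0.20 that did not pass (adjusted p = 0.0806). Ggcx, the carboxylase that activates Mgp, had one of -0.22 (adjusted p = 0.153; 0.0277 with the term for CKD 1 and Sham 1), and Vkorc1, which recycles vitamin K, one of -0.05 (adjusted p = 0.883).

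A pair of well-known inhibitors lay under the minimum level and was picked out after the values were seen. Spp1, which encodes osteopontin, a phosphoprotein of bone and of activated macrophages, was at 1.05, 1.36, 0.615, 0.576 and 0.853 FPKM in CKD. In Sham it was at 0.0762, 0.352, 0.137, 0 and 0.0777 FPKM. Tnfrsf11b, which encodes osteoprotegerin, the decoy receptor for RANKL, was at 0.314, 0.543, 0.427, 0.367 and 0.287 FPKM in CKD and at 0.0793, 0.131, 0.0952, 0.0966 and 0.144 FPKM in Sham. Neither gene overlapped between the groups, as was so for 1.88% of the 6058 entries under the minimum with CKD above Sham. In the fit with no minimum both rose, Spp1 by 1.14 (log2, SE 0.17, adjusted p = 0.00764) and Tnfrsf11b by 0.54 (SE 0.08, adjusted p = 0.00599), where 1.25% of the entries under the minimum were called higher. Both calls held without each library in turn (adjusted p up to 0.0233 and 0.0217) and with pseudocounts of 0.1 and 1, but the size depended on the pseudocount: 2.23 and 0.73 for Spp1, and 1.21 and 0.32 for Tnfrsf11b. Spp1 differed by 1.07 (adjusted p = 0.0368) and Tnfrsf11b by 0.55 (adjusted p = 0.0195) with the 8 libraries. The macrophage markers are given above, and their part in the Spp1 difference was not tested.

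Of the 52 genes in all lists that lay under the minimum but above 0, 4 were called in that fit. Each was higher, where 1.25% of all entries under the minimum were. The other two were Fgf6, a ligand of skeletal muscle, and Etv4, an FGF-induced transcription factor. Fgf6 averaged 1.06 ± 0.230 FPKM in CKD against 0.458 ± 0.151 in Sham, with no overlap (log2 0.71, SE 0.13, adjusted p = 0.0184; 0.0512 without Sham 3; 0.0306 with the 8 libraries; 1.08 and 0.50 with the pseudocounts of 0.1 and 1). Etv4 was at 0.319 ± 0.0833 and 0.109 ± 0.0728 FPKM, with CKD 5 inside the Sham range (log2 0.43, adjusted p = 0.0374; 1.04 and 0.25 with the other pseudocounts). Leaving out CKD 5 or Sham 5 kept the call, and it ended with any of the other 8 left out (adjusted p up to 0.0909) and in the 8 libraries (0.126). Pthlh, the parathyroid hormone-related peptide, did not overlap either (0.527 ± 0.117 and 0.272 ± 0.120 FPKM) but was not called (log2 0.42, adjusted p = 0.0874).

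**Figure D5:**
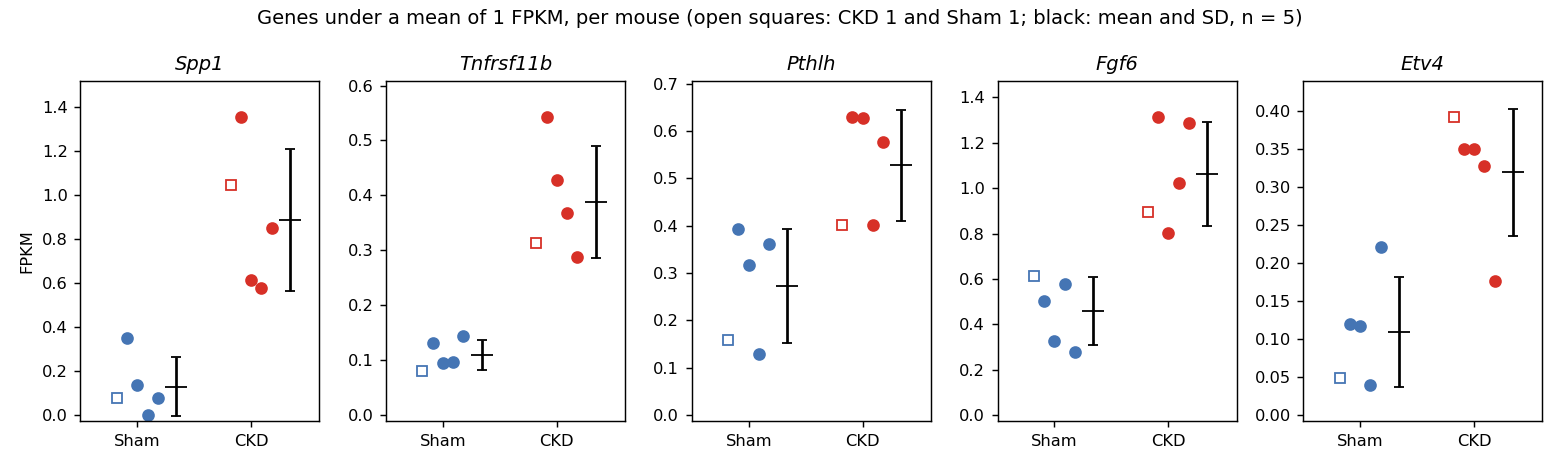
FPKM per mouse (vertical axes include 0; symbols as in the plot of the 10 genes) of 5 genes with a mean under 1 FPKM, chosen after their values were seen. The CKD mice lie above every Sham mouse for Spp1 (0.576 to 1.36 against 0 to 0.352 FPKM), Tnfrsf11b, Pthlh and Fgf6, and CKD 5 falls inside the Sham range for Etv4.

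Vdr (chromosome 15, 97854427 to 97908296) encodes the nuclear receptor for active vitamin D. It was at 0.476, 0.719, 0.520, 0.315 and 0.565 FPKM in CKD and at 0.244, 0.329, 0.818, 0.729 and 0.454 FPKM in Sham. Every CKD mouse lay within the Sham range, and in the fit with no minimum the difference was 0.03 (log2, 95% interval -0.34 to 0.40, adjusted p = 0.962). Of 21 vitamin D and parathyroid hormone genes 6 were tested and none passed, with a median of -0.03. With the term for CKD 1 and Sham 1, Rxra was called lower (log2 -0.17, adjusted p = 0.0435, against 0.108 without the term). The retinoid X receptors, partners of Vdr on DNA, were far more abundant than Vdr: Rxrg averaged 52.9, Rxrb 22.9 and Rxra 18.4 FPKM over all libraries. Pdia3, a protein disulfide isomerase also proposed as a membrane receptor for vitamin D, was the most abundant of the list, at 73.8 ± 4.50 FPKM in CKD and 77.5 ± 2.88 in Sham. Cyp24a1, which degrades vitamin D and is its classic target gene, was at most 0.0305 FPKM.

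Of 17 genes of bone and cartilage biology, not all of which promote their formation, 13 lay under the minimum level and 1 was listed at 0. The other 3 were tested and none passed: Msx1 (log2 0.18, adjusted p = 0.477), Bmp4 (0.10, 0.861) and Bmp6 (-0.05, 0.902). Bmp6, a bone morphogenetic protein, was the most abundant, at 10.3 ± 1.36 FPKM in CKD and 10.9 ± 2.79 in Sham. None of the 13 under the minimum was called in the fit with no minimum. The lowest adjusted p there was that of Tnfrsf11a, at 0.561 ± 0.157 FPKM in CKD and 0.301 ± 0.0491 in Sham with overlap (log2 0.39, adjusted p = 0.0662). Runx2, the master regulator of osteoblasts, ranged from 0.299 to 0.735 FPKM over the 10 mice with the groups overlapping, Sp7, the osteoblast factor osterix, was at most 0.0425 FPKM, and Ibsp, bone sialoprotein, was listed at 0 throughout.

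For the genes that passed, the tested genes with the most similar course over the 10 mice (predicted genes and clone names left out) were found by the mean absolute difference of log2 values, each centred on its own mean. Genes with a course close to that of Mgp included Pi16, a marker of adventitial fibroblasts (0.08), and Ptgis, prostacyclin synthase of vessel walls (0.10). The median over all tested genes was 0.34. Pi16 averaged 42.2 ± 3.78 FPKM in CKD against 25.0 ± 2.32 in Sham. Fgfr1 was nearest to Ano6, a lipid scramblase, Mmp2, a gelatinase of fibroblasts, and Man2b2, a mannosidase (0.04 each, against a median of 0.18). Mmp2 (adjusted p = 0.00539) and Man2b2 (0.0461) passed the limma test, and Ano6 did not (0.0963). Slc20a2 was nearest to Adi1, Ddx28 and D2hgdh (0.04 each, against a median of 0.17), all of which had lower means in CKD. D2hgdh passed the limma test (adjusted p = 0.0160), and Adi1 (0.131) and Ddx28 (0.162) did not. These genes were picked for likeness out of all tested genes, so no test is given.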

How the data were processed

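Left ventricular RNA of 5 CKD and 5 Sham mice was analysed from 1 table of FPKM values that the authors deposited, with 1 column per mouse. Libraries were made with the TruSeq mRNA protocol, per the labels' protocols, and read in single-end runs. STAR 2.4.0f1, Cufflinks 2.1.1 and Cuffdiff 2.1.1 and the builds mm10 and hg19 are named in the submitters' processing notes, without roles. The handling of shared reads, strand and scaling between libraries is not stated there. The reads behind an FPKM value are unknown. The steps of low values put the depth of the 8 libraries other than CKD 1 and Sham 1 at 0.906 to 1.15 times that of Sham 2. All libraries differed from each other.

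Values were analysed as log2(FPKM + 0.5) with limma 3.58.1 in R 4.3.3 (mean-variance trend, two-sided), on all 11651 genes with a mean of at least 1 FPKM. Fold changes, taken on the same scale, are too small for low genes. The gene test was also run on simulated data with independent noise in each gene. Those data had no shift shared by CKD 1 and Sham 1, so the run does not cover that feature. Alternatives were pseudocounts, filters, scalings, variance models, a threshold of 0.1 and libraries left out. A term for CKD 1 and Sham 1, and unfiltered fits of low genes with libraries left out or with other pseudocounts, were added after the values were seen. The genes, lists and markers were chosen with earlier results of these data known. The text names all 10 genes, the called genes of each list (at most 4 per direction), each list's most abundant gene, and the 3 genes most like each called gene, of which 1 is not reported here. Other list genes were named after their values were seen. Positions are from RefSeq (GRCm38, which mm10 denotes), and overlapping exons from GENCODE M21.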

Additional observations from a re-analysis of the deposited data

Results flagged for a closer look

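In groups of 5 mice, 6 of 80 sets of values had a mouse standing apart by Dixon's criterion, where chance gives about 4. Fgfr1 in Sham was highest in Sham 5 (9.83 FPKM, against 8.43 to 8.75 in the other 4), and Enpp1 in Sham was highest in Sham 2 (2.71 FPKM, against 1.84 to 2.02). CKD 4 had an Fgfr1 share of 75.3% of the summed receptor FPKM (63.9% to 66.9% in the other CKD mice) and an Fgfr3 share of 23.7% (32.0% to 35.1%), which are 2 views of its low Fgfr3 value. The summed cardiomyocyte markers came to 67513 FPKM in CKD 1, where the rest of the group had 82730 to 84239. Sham 1, the other library that stood apart, was also the lowest of its group (71205 FPKM, against 82184.5 to 86773) but was not flagged. The summed red cell markers, of which 2 of 5 were matched, came to 201 FPKM in CKD 5, where the rest had 84.7 to 113.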

How the results depend on the processing

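Over 22 alternatives Mgp kept its call (log2 0.59 to 0.72), Fgfr1 kept it in 17 (0.26 to 0.32) and Slc20a2 in 13 (-0.31 to -0.23), with no change of direction. Leaving out 1 library gave log2 0.27 to 0.32 for Fgfr1, 0.37 to 0.58 for Fgfr3, -0.15 to 0.10 for Slc20a1 and -0.31 to -0.23 for Slc20a2, with 1 to 3 of the genes described here called higher and 0 to 1 lower. Over all genes it gave 202 to 385 higher and 131 to 290 lower, against 369 and 247. Without both CKD 1 and Sham 1, 1 of the genes described here was higher, Fgfr1 lost its call (0.26) and Slc20a1 turned to 0.026. With equal library totals, and in a model lacking the variance trend, Slc20a2 lost its call at -0.26 in each, which left 0 lower. A term for CKD 1 and Sham 1 gave 573 genes higher and 479 lower, a threshold of 0.1 gave 633 and 454, and library weights gave 400 lower. Bmp6 turned to 0.0047 with library weights and ranged from -0.16 to 0.063 with 1 library left out. The cause of these changes was not tested. No paired analysis was possible because the labels number mice through the series and pair none across the groups. A minimum mean of 5 FPKM left Fgfr3 and Enpp1 untested.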
